A study of Mus musculus with 3 samples.

Results

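The pre-B cell receptor and its proximal signalling proteins were examined through 9 genes, chosen by their symbols out of 50686 genes listed in the count table: Igll1, Vpreb1, Vpreb2, Vpreb3, Cd79a, Cd79b, Syk, Btk and Blnk. RNA sequencing counts were available for 3 cell lines of 1 genotype, called lines 1, 2 and 3 after their replicate numbers. The lines were grown out from bone marrow of C57BL/6 mice carrying kinase-inactive CDK6 (K43M; Cdk6 KM/KM) after transduction with a retrovirus that expressed the p185 form of BCR::ABL1 together with GFP, and the labels call the cells Pre/Pro-B-cells. All 3 lines carried both the mutant Cdk6 and the oncogene, so no value below compares genotypes, and each line is a transformed culture rather than a fresh B cell population.

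Large pre-B cells display a receptor made of an immunoglobulin mu heavy chain and a surrogate light chain, which the products of Igll1 and of Vpreb1 or Vpreb2 form before a conventional light chain is available. The receptor signals through the heterodimer of CD79A and CD79B (Ig-alpha and Ig-beta), whose cytoplasmic motifs recruit the tyrosine kinase SYK. SYK phosphorylates the scaffold BLNK, which brings together the kinase BTK and phospholipase C gamma. In the mouse this receptor marks the checkpoint at which cells with a productive heavy chain are expanded.

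Vpreb1 and Vpreb2 are near-identical genes, and the stretch in which most of their differences lie is shown because it sets how far their reads can be told apart. The coding sequences of both were 426 bases long in the Gencode M21 transcripts and differed at 9 positions (97.9% identity), with a longest identical run of 196 bases. Coding bases 238 to 387, counted from the first base of the start codon, hold 6 of the 9 differences, in capitals below.
Vpreb1: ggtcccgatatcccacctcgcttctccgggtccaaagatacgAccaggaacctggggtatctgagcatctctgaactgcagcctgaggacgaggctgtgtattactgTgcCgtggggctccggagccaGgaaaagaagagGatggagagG
Vpreb2: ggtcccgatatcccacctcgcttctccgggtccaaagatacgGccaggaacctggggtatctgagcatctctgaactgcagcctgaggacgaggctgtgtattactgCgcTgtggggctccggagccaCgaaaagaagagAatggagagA
Of the 50-base stretches along the main coding transcript of Vpreb1, 233 of 717 (32.5%) also occurred in Vpreb2, and 233 of 710 (32.8%) of those of Vpreb2 occurred in Vpreb1. Reads of the length used here that fell in these stretches could not be placed on 1 of the pair, so their separate values are uncertain. The stretches were taken from each member's main transcript and searched in all Gencode M21 transcripts of other genes. Cd79a shared 117 of 1408 (8.31%) with the gene model Gm32220, and the other 6 members shared none. The Vpreb1 exons also overlapped those of Top3b on the opposite strand by 108 bases.

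Sequence upstream of the start site was looked up for the members in RefSeq promoter windows (GRCm38.p6), of which 8 of 9 matched. Igll1 and Cd79a are shown because each encodes a receptor component. They differ in exact matches to a strict form of the core recognised by EBF1, the early B cell factor (CCCNNGGG). Both hold matches to the E-box bound by E2A (CAGNTG). Matches to either motif are in capitals, searched on both strands, and the bases shown lie outside annotated exons.
Igll1, chr16:16863986-16864235, minus strand: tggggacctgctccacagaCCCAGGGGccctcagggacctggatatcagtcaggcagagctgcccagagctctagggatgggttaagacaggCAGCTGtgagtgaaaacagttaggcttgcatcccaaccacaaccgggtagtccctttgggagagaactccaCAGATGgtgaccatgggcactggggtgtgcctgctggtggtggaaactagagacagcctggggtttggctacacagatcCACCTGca
Cd79a, chr7:24897247-24897380, plus strand: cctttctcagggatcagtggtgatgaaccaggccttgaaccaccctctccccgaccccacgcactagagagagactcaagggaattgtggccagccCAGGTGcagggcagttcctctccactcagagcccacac
The 250 bases shown for Igll1 held 1 EBF1 core and 3 E-boxes, and the 134 bases shown for Cd79a held 1 E-box. No match overlapped another. Over windows of 250 bases, the EBF1 core was found for 1 of 8 members and in 11.8% of all 32851 windows. The E-box was found for 7 of 8 members and in 44.8% of all windows. Syk had more than 1 window and counted as matched if any held a match, so the member counts are per gene. The ETS core GGAAG occurred in 6 of 8 members and 64.1% of all windows. These are exact letter matches only, and a site that departs from the pattern is not counted. The Cd79a bases shown hold ctcaaggg, which departs from CCCNNGGG at 1 letter. The lack of a match in Cd79a therefore does not show that it lacks an EBF1 site.

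The libraries held 19633463 to 25773221 counts, and 3 counts corresponded to 0.118 to 0.152 CPM, counts scaled to a common library size by the trimmed mean of M-values. Of 12 markers of pro-B and pre-B cells, 10 were at 1 CPM or more in every line, and their summed level was 3161 to 3750 CPM. Kit had 0 counts in all 3 lines. Summed markers of T cells (24.3 to 50.6 CPM) came almost entirely from Lck, with Cd3e, Cd3g and Cd8a at 0, and stromal markers were at 0 throughout. Myeloid markers summed to 1.75 to 3.93 CPM, natural killer cell markers to 0.645 to 0.760 CPM, megakaryocyte markers to 0.323 to 0.861 CPM and erythroid markers to 0.0507 CPM at most. Mature B cell markers summed to 19.3 to 32.7 CPM, led by Cr2 and Ighd, and plasma cell markers to 239.6 to 299.5 CPM, led by Xbp1 and Sdc1. Cdk6 itself was at 449.5, 334.2 and 239.3 CPM in lines 1, 2 and 3, and the K43M base change is not visible in gene counts. Line 3 stood apart in its sex-linked transcripts. Xist, which is transcribed from the inactive X chromosome, was at 53.0 CPM there and at 0.829 and 0.760 CPM in lines 1 and 2, whereas 3 Y-linked genes summed to 154, 113 and 0.236 CPM. Because each value comes from a bulk culture, fewer cells of a type and less RNA per cell cannot be told apart.

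All members were expressed in all lines, and 3 different patterns were seen among them. The 4 surrogate light chain and related genes and the Cd79 pair stayed within 1.22-fold between lines, Blnk within 1.49-fold, and Syk and Btk varied the most, by 2.65-fold and 2.00-fold. Each line's counts were compared with those its depth predicts by a chi-square test of homogeneity with Benjamini-Hochberg adjustment over 13974 genes, which compares these libraries and not conditions. All 9 members differed between libraries, where 66.8% of all genes did, and Cd79a had the largest adjusted p of the members (2.9e-11). Since the test measures counting error only, the size of the range between lines was also used. By that measure 1 of 9 members, Syk, reached 2-fold on the log2(CPM + 1) scale, beside 10.9% of all genes tested, and the members' median range was 0.28, beside 0.32 for all genes. The raw counts behind these values ran from 3155 for Syk in line 1 to 15032 for Btk in line 3. Among all genes tested, the range of Syk stood at the 94.1st percentile, that of Btk at the 89th and that of Blnk at the 74.8th, while Igll1, the 3 Vpreb genes and the Cd79 pair lay between the 19.1st (Cd79a) and the 45th (Cd79b).

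**Figure D1:**
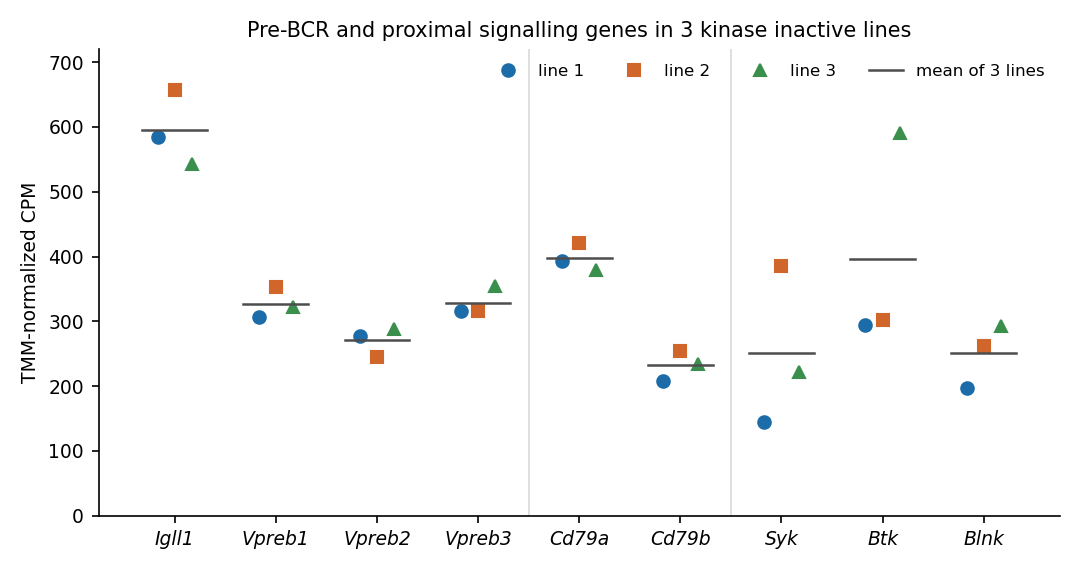
Level of each of the 9 genes in CPM (linear axis from 0) in the 3 Cdk6 KM/KM lines. Symbols are single lines and horizontal bars are the means. The values of Igll1, the Vpreb genes and the Cd79 pair lie close together between lines, whereas Syk runs from 145 to 385 CPM and Btk from 295 to 590.1 CPM.

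Igll1 (ENSMUSG00000075370.10), which encodes the lambda-like chain of the surrogate light chain, had the highest mean CPM of the members, at 585, 657 and 542 CPM in lines 1, 2 and 3 (595 ± 57.9, SD, n = 3). The gene lies on chromosome 16 at 16860671 to 16863985 (GRCm38, minus strand). Line 2 was highest and line 3 lowest, and the range was 0.28 on the log2(CPM + 1) scale. Vpreb1 (ENSMUSG00000059305.10), its neighbour at 16868403 to 16870843 on the same strand, encodes the V-like chain that pairs with it. Vpreb1 was at 306, 353 and 322 CPM (327 ± 23.7), highest in line 2. Vpreb2 (ENSMUSG00000059280.3), which encodes a near-identical chain and lies at 17980428 to 17981273 of chromosome 16 on the plus strand, was at 278, 246 and 289 CPM (271 ± 22.4). Vpreb2 was lowest in the line where Vpreb1 was highest. Vpreb1 exceeded Vpreb2 in every line, by 1.10-fold, 1.44-fold and 1.12-fold in CPM, but their order depends on the gene length used. Per kilobase of all annotated exons Vpreb2 was the higher in every line (366, 324 and 380 against 255, 294 and 268 CPM per kilobase). Per kilobase of the main transcript Vpreb1 was the higher in the mean (427 against 357).

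Counted together, Vpreb1 and Vpreb2 reached 584, 598 and 610.4 CPM (598 ± 13.2), a range of 0.06 that is smaller than the 0.20 and 0.23 of the single genes. Vpreb3 (ENSMUSG00000000903.3), whose product binds newly made light chains and heavy chains inside the cell and is not part of the surface receptor, was at 316, 317 and 354 CPM (329 ± 22.1). Its gene is elsewhere, at 75943057 to 75949657 of chromosome 10. Lines 1 and 2 were almost level for Vpreb3 and line 3 was higher. When line 3 was left out Vpreb3 no longer differed between libraries (adjusted p from the same chi-square test 0.985), and Vpreb2 no longer differed without line 2 (adjusted p 0.203). The sum of Igll1, Vpreb1 and Vpreb2 was 1169, 1255 and 1153 CPM (1192 ± 55.1).

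Cd79a and Cd79b encode the signalling heterodimer that pre-B and mature B cell receptors share. Cd79a (ENSMUSG00000003379.7), at 24897381 to 24902197 of chromosome 7, was at 393, 421 and 379 CPM (398 ± 21.6), and its range of 0.15 was the smallest of the members. Line 2 was highest and line 3 lowest. Cd79b (ENSMUSG00000040592.11), at 106311341 to 106314762 of chromosome 11, was at 208, 255 and 234 CPM (232 ± 23.2), highest in line 2 and lowest in line 1. The 2 chains enter the heterodimer in equal number. Per kilobase of exon, Cd79a RNA exceeded Cd79b RNA by 1.86-fold, 1.63-fold and 1.59-fold, in the same direction in all 3 lines.

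Syk (ENSMUSG00000021457.14), the kinase recruited to the phosphorylated heterodimer, lies at 52583173 to 52648792 of chromosome 13. It had the widest range of the members, at 145, 385 and 221 CPM (251 ± 123), 1.40 on the log2 scale. Line 2 was highest and line 1 lowest. The range fell to 0.58 without line 2 and to 0.80 without line 1, so that no member reached 2-fold in either case. Btk (ENSMUSG00000031264.13), a kinase of the TEC family encoded on chromosome X at 134542336 to 134583570, was at 295, 303 and 590.1 CPM (396 ± 168). Lines 1 and 2 were close and line 3 stood above both. The range of Btk, 1.00, fell just short of 2-fold, and without line 3 it was 0.03 and the libraries no longer differed (adjusted p 0.313). Blnk (ENSMUSG00000061132.13), the scaffold that links SYK to BTK, lies at 40928927 to 40994535 of chromosome 19. It was at 197, 262 and 293 CPM (251 ± 48.9), a range of 0.57, lowest in line 1.

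The kinases were highest in different lines, and the ratio of Btk to Syk in CPM was 2.03, 0.786 and 2.67 in lines 1, 2 and 3. This ratio does not account for gene length, as the exons of Syk span 9362 bases and those of Btk 3149. Per kilobase of exon Btk was above Syk in every line, also in line 2 (96.1 against 41.1 CPM per kilobase). The 3 signalling genes summed to 637, 949.5 and 1104 CPM (897 ± 238). The surrogate light chain sum was lowest in the line where this sum was highest, but its range was 0.12 against 0.79. Over all 9 genes the lines were at 2723, 3197 and 3224 CPM, or 0.274%, 0.321% and 0.319% of counts.

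The genes around each member were then examined to see whether a member stood apart from its region. Deviations are log2(CPM + 1) in a line minus the mean of the 3 lines, and neighbours are the tested genes within 5 Mb on either side with a mean of at least 5 CPM. Around Btk the 23 neighbours had a median deviation of −0.37, −0.28 and 0.63 in lines 1, 2 and 3, beside −0.34, −0.31 and 0.65 for Btk, and 22 of them were highest in line 3. With the neighbours' median subtracted, the range of Btk was 0.06. The 39 neighbours of Xist, elsewhere on chromosome X, had median deviations of −0.36, −0.20 and 0.57. The shift was thus not limited to genes near Btk. Xist and the Y-linked genes also set line 3 apart, and their part in the Btk values was not tested.

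Around Syk the 51 neighbours had a median deviation of −0.29, 0.50 and −0.20, beside −0.67, 0.73 and −0.07 for Syk. Of these neighbours 45 were highest in line 2, and 14 ranged over at least 2-fold. The range of Syk was 0.61 after subtraction. Dok3, an adaptor that dampens receptor signals, is 1 of these 51 neighbours and was highest in line 2 at 79.2 CPM, beside 33.3 and 47.4 CPM. Around Blnk the 57 neighbours were level between lines, with medians of −0.04, −0.01 and 0.01, and the range of Blnk stayed at 0.52. The neighbours of Igll1, the 3 Vpreb genes and the Cd79 pair had medians between −0.05 and 0.05 in every line, and subtracting them left ranges of 0.11 to 0.28.

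**Figure D2:**
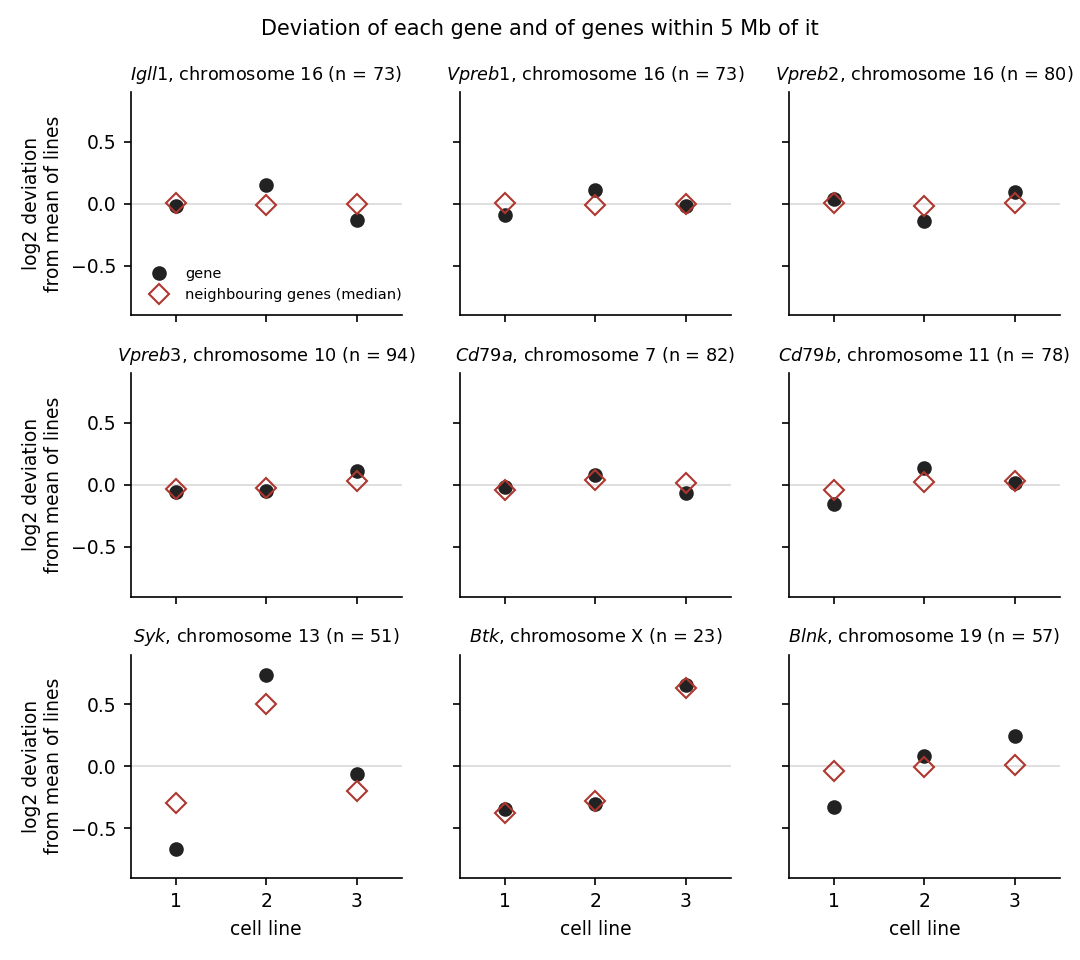
Deviation of each member (filled circles) from its mean over the 3 lines, in log2(CPM + 1), and the median deviation of the genes within 5 Mb (open diamonds), with the number of neighbours as n in each panel title. The diamonds lie on Btk in all 3 lines, reach 0.50 in line 2 around Syk, and are near 0 around the other 7 genes.

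Levels of different genes were compared per kilobase of the union of their exons, as CPM per kb. Vpreb3 was highest at 383 ± 25.7 CPM per kb, followed by Vpreb2 at 357 ± 29.5, a step within their spread although it held in 3 of 3 lines. Igll1 (275 ± 26.8), Cd79a (273 ± 14.8) and Vpreb1 (273 ± 19.8) came next and could not be ordered. A step was taken as beyond the spread where it held in all 3 lines and its mean exceeded the larger SD of the pair. Vpreb2 exceeded Igll1 in every line and by 1.30-fold in the mean, beyond the spread. Vpreb1 exceeded Cd79b by 1.68-fold, also beyond the spread. Cd79b was at 162 ± 16.2 and Btk at 126 ± 53.4 CPM per kb, again not separable, since Btk was the higher of the pair in 1 of 3 lines. Blnk at 41.8 ± 8.17 and Syk at 26.8 ± 13.1 CPM per kb were lowest, and Btk exceeded Blnk (3.00-fold), and Blnk exceeded Syk (1.56-fold), in all 3 lines and beyond the spread. Even Syk lay at the 84.1st percentile of genes tested on this scale, and Vpreb3 at the 99.6th.

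The order of the top 5 depended on the length used. The union of Igll1 exons was 2164 bases, whereas its main transcript was 870 bases long. Per kilobase of main transcript Igll1 was first, at 684 CPM per kb, above Vpreb3 (451), Vpreb1 (427), Vpreb2 (357) and Cd79a (273). The order of Cd79b, Btk, Blnk and Syk below them was the same with either length. Likewise the ratio of Igll1 to the summed Vpreb pair, 0.435, 0.491 and 0.386 per kilobase of exon union, is bound to that choice of length. It also depends on how reads shared by the pair were counted.

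**Figure D3:**
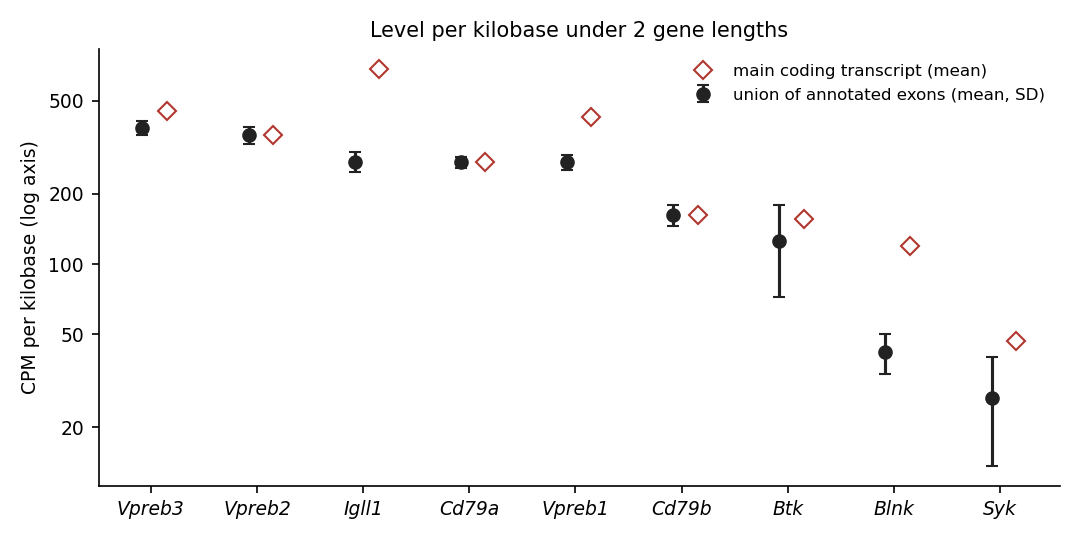
Mean level of the 9 genes in CPM per kb (log axis) over the 3 lines. Filled circles with bars are the mean ± SD (n = 3) per kb of exon union, which sets the order from left to right, and open diamonds the mean per kb of main coding transcript. Igll1, the Vpreb genes and the Cd79 pair lie between 162 and 383 CPM per kb of exon union, above Blnk and Syk at 41.8 and 26.8, and Igll1 moves to 684 with the main transcript.

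The other genes of the pathway were taken from 5 lists that hold 69 genes, of which 67 were tested. Between libraries 59 of these differed, where 66.8% of all genes did, and 16 (23.9%) ranged over at least 2-fold, beside 10.9% of all genes. The distance between these 2 shares depends on the 1 CPM added before the logarithm. With 0.1 CPM added instead, 3183 of the 13974 genes tested reached 2-fold, in place of 1530. The 5 lists, in the order below, then held 3, 5, 5, 2 and 5 such genes, in place of 3, 5, 4, 1 and 3. With 1 CPM added, the median range of the listed genes was 0.43. Of the 16 genes at 2-fold, 6 were highest in line 1, 6 in line 2 and 4 in line 3.

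Src-family kinases phosphorylate the CD79 motifs. Of this list, which also holds Csk, a kinase outside the family, 7 of 8 tested genes differed and 3 reached 2-fold. At 2-fold there were 0 without line 1, 1 without line 2 and 3 without line 3. Leaving out a line also lowered the number of all genes at 2-fold, from 1530 to 957, 979 and 620 without lines 1, 2 and 3. Csk, which restrains these kinases, was highest at 435.5, 431 and 374 CPM (414 ± 34.2). Blk was at 65.4, 159 and 129 CPM (118 ± 47.6) and Lck, best known from T cells, at 24.3, 50.6 and 43.2 CPM (39.3 ± 13.6). Both were lowest in line 1, as were the members Syk and Blnk, and also Vpreb1 and Cd79b, which ranged by only 1.15-fold and 1.22-fold. Vpreb3 and Btk were lowest there as well, but almost level with line 2 (316 against 317 CPM and 295 against 303 CPM). Igll1 and Cd79a were lowest in line 3 and Vpreb2 in line 2. Lyn, the main Src-family kinase of many B cells, was at 106, 92.3 and 133 CPM (110.3 ± 20.6).

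Of 25 adaptors and effectors, 22 differed and 5 reached 2-fold (4 without line 1, 2 without line 2 and 4 without line 3). Abundant genes of this list were level between lines. Pik3cd, a catalytic subunit of phosphoinositide 3-kinase, was at 1597, 1705 and 1821 CPM, and Plcg2, the phospholipase downstream of BLNK and BTK, at 872, 749 and 823 CPM. Among the most variable was Lcp2, the relative of Blnk used in T cells, at 15.6, 6.33 and 2.98 CPM, highest in line 1 and lowest in line 3. The adaptor gene Lat2 was instead lowest in line 2, at 19.7 CPM beside 56.9 and 54.6 CPM.

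Of 17 inhibitory receptors and phosphatases, 14 differed and 4 reached 2-fold (3 without line 1, 2 without line 2 and 2 without line 3). Inpp5d (726, 706 and 785 CPM), which encodes the lipid phosphatase SHIP, and Ptprc (393, 363 and 392 CPM), which encodes CD45, were high and level. Ptpn6, the gene of the tyrosine phosphatase SHP1, was lowest in line 2 at 273 CPM, beside 416 and 393 CPM. Ptpn22, a phosphatase acting on Src-family and SYK-family kinases, was also lowest in line 2, at 14.5 CPM beside 44.8 and 51.7 CPM. Dok2 was low throughout, at 4.10, 2.03 and 14.9 CPM.

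All 12 transcription factors of the list differed between libraries, and 1 reached 2-fold. Pax5 (814 ± 30.8 CPM), Tcf3 (545 ± 68.3), which encodes E2A, and Ebf1 (416 ± 20.5) were abundant in every line. Spib was at 10.5, 46.6 and 15.8 CPM, so that its 2-fold range rested on line 2, and its relative Spi1 was at 62.3, 62.6 and 98.4 CPM. Irf4, which acts at the exit from the pre-B cell stage, was at 102, 135 and 152 CPM.

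**Figure D4:**
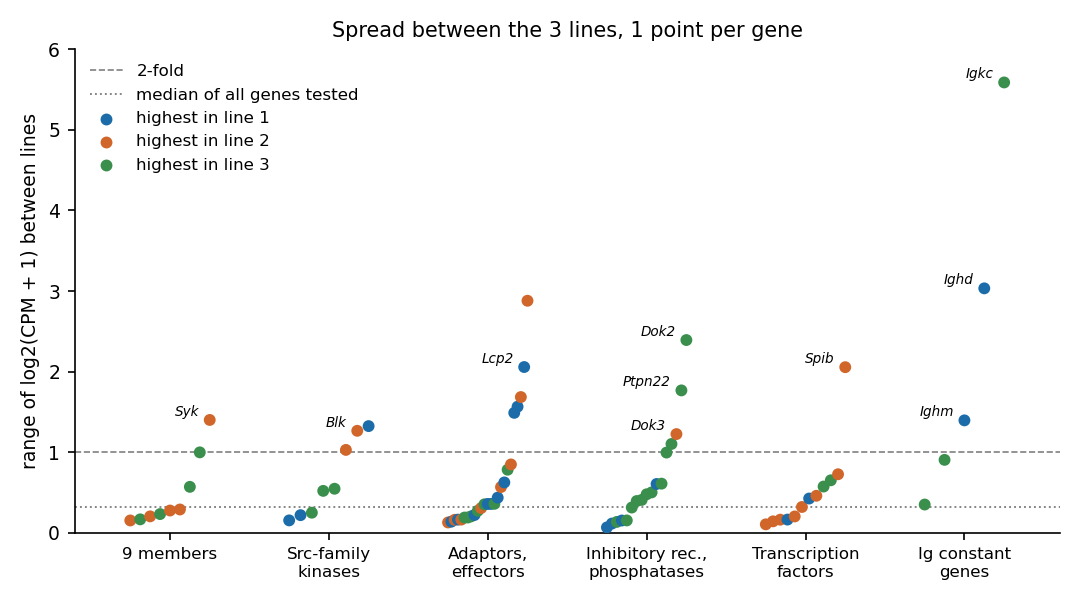
Range between the highest and the lowest line, in log2(CPM + 1), for each tested gene of the pathway lists, coloured by the line in which it was highest, with some of the genes described in the text labelled. The dashed line marks 2-fold and the dotted line the median of all genes (0.32). Syk is the only member above 2-fold, and Igkc has the widest range at 5.59.

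The immunoglobulin constant genes supply the partners of the surrogate light chain and its successors. Ighm, the constant gene of the mu heavy chain, was at 1405, 1373 and 534 CPM (1104 ± 494), lowest in line 3. Igkc, the constant gene of the conventional kappa light chain, was at 4.15, 3.09 and 196 CPM, high only in line 3. The surrogate light chain sum was thus 0.832, 0.914 and 2.16 times the Ighm level in CPM, and Igkc was 0.00709, 0.00470 and 0.361 times Igll1. Counts of Ighm and Igkc fall on constant exons, so they do not show whether a transcript carried a rearranged variable region. Ighd, the delta heavy chain of later B cells, was at 19.4, 12.7 and 1.49 CPM. Of the 5 constant genes tested 4 differed and 3 reached 2-fold (3 without line 1, 3 without line 2 and 0 without line 3). Iglc2 had fewer than 3 counts in each line. Igll1, Vpreb1 and Vpreb2 each stayed within 1.21-fold over the same 3 lines.

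**Figure D5:**
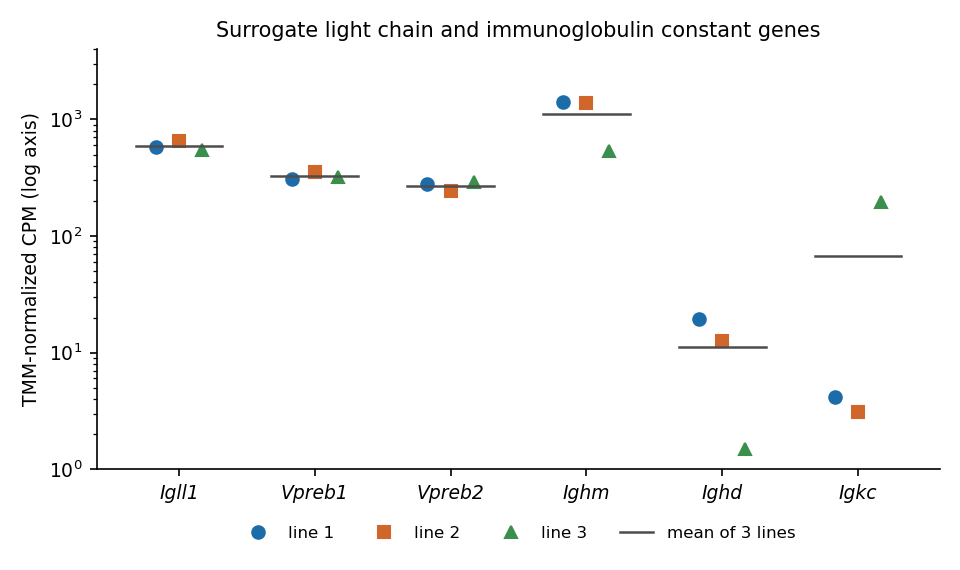
Levels of Igll1, Vpreb1, Vpreb2, Ighm, Ighd and Igkc in CPM (log axis), with a symbol for each line and a bar for the mean of the 3 lines. Line 3 has the lowest Ighm (534 CPM) and the highest Igkc (196 CPM), while Igll1 stays between 542 and 657 CPM.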

How the data were processed

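Lines of bone marrow cells transformed by BCR::ABL1 were profiled by RNA sequencing, and the 3 lines of the K43M group were used. The authors deposited 1 table of raw counts per gene: reads were trimmed with Trimmomatic, aligned with STAR to mm10 and counted with featureCounts on Gencode M13. The labels name a SENSE mRNA kit with 50-base single-end reads and the study's methods a TruSeq kit. The strand setting and the handling of reads with several matches are not given in the sources used here, so overlapping genes and near-identical copies are uncertain. A further 6 columns of the table, with names that match none of the samples used here, were left out.

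Counts were scaled to CPM with the trimmed mean of M-values (edgeR 4.0.16, R 4.3.3). Genes with at least 10 counts summed over the lines (13974) were tested by a chi-square test of homogeneity against the scaled library sizes, with Benjamini-Hochberg adjustment and a threshold of 0.05 (scipy 1.17.1). The labels do not say how the cultures were kept apart, and with 1 group the p-values measure differences between libraries beyond counting error, which may be technical. Ranges are on the log2(CPM + 1) scale, and 2-fold means a range of at least 1. The script for the test was checked on simulated counts that held counting error only, so the check does not cover the spread between cultures. Of the 50686 gene identifiers, 50376 matched Gencode M21 (GRCm38) without the version, which gave coordinates and lengths. The versions were equal for 6 of 9 members and differed for Igll1, Vpreb1 and Vpreb2.

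The text names all 9 members and Cdk6. Of each pathway list it names the 3 genes with the highest mean and the 3 with the widest range at a mean of at least 5 CPM, and genes under 3 counts in every line, except for items that are not reported here. Of marker lists it names the leading 2 where they bear on a value, and markers at 0. The promoters shown, Top3b, Gm32220, Xist and the sum over Vpreb1 and Vpreb2 were chosen after the values were seen. Members and lists were chosen with earlier results of these data known. The alternatives tried were other filters, scaling with DESeq2 1.42.0 or by library size only, a pseudocount of 0.1 CPM, each line left out, neighbouring genes subtracted and another gene length.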

Additional observations from a re-analysis of the deposited data

How the results depend on the processing

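The 3 libraries give counting precision well below the differences named for single genes, but with 1 culture per line the spread between lines rests on 3 values. No paired analysis was possible because the data hold a single group of 3 lines. Of 243 values recomputed under an alternative, 212 stayed within the spread between lines or within 1.5 times the count and 31 moved. DESeq2 size factors, library size alone and a minimum of 10 counts in every line moved no value. With neighbouring genes subtracted the range of Syk was 0.61, that of Btk 0.0593, and 0 members reached 2-fold. With Vpreb1 and Vpreb2 summed, an alternative chosen after seeing the data, the range was 0.0637 in place of 0.20. With no filter on low counts 2 members reached 2-fold, since Btk crossed the line. A pseudocount of 0.1 CPM raised the genes at 2-fold from 1530 to 3183, the transcription factors from 1 to 2 and the immunoglobulin constant genes from 3 to 5. With the main transcript's length 4 of 9 members kept their rank.

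Leaving out each line in turn gave ranges of 0.13 to 0.28 for Igll1, 0.0538 to 0.20 for Vpreb1, 0.0374 to 0.23 for Vpreb2, 0.000734 to 0.16 for Vpreb3, 0.0717 to 0.15 for Cd79a, 0.12 to 0.29 for Cd79b, 0.58 to 1.40 for Syk, 0.0326 to 0.98 for Btk and 0.16 to 0.55 for Blnk. At fixed scaling, fewer libraries cannot widen a range, so smaller values were set by construction. The remaining lines were rescaled, which allowed slight rises, as for Igll1 without line 1 (0.2769 beside 0.276). The genes that differed numbered 6098 to 7267 in place of 9341, and those at 2-fold were 979 or fewer, down to 620 without line 3. At 2-fold there were 0 to 1 members, 0 to 3 Src-family kinases, 2 to 4 adaptors and effectors, 2 to 3 inhibitory receptors and phosphatases, 0 to 1 transcription factors and 0 to 3 immunoglobulin constant genes. Between 6 and 9 members kept their rank per kilobase. For other differences the cause was not tested.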
